A study of Mus musculus with 16 samples.

Results

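Genes of the thioredoxin, NADPH and quinone branch of the antioxidant response were followed in RAW264.7 cells, an established mouse macrophage-like line. The 10 genes are Nqo1, Txnrd1, Srxn1, Prdx1, Hmox1, Pgd, Taldo1, Tkt, Cat and Osgin1. They are a list of names, drawn up with earlier results of these data known and so not independent of them, and all 10 were among the 18820 genes measured. The study asked how docosahexaenoyl serotonin (DHA5HT, an n-3 fatty acid joined to serotonin) changes the response of macrophages to lipopolysaccharide (LPS, a bacterial cell wall component that activates Toll-like receptor 4). There were 4 groups of 4 arrays, all of cells exposed for 24 h. The LPS+DHA5HT group received LPS at 1 µg/ml with DHA5HT at 1 µM, the LPS group LPS at 1 µg/ml, the DHA5HT group DHA5HT at 1 µM, and the control group the solvent, ethanol at 0.1% by volume. The sample labels name the solvent for the control arrays only. All groups are of 1 cell line. Nothing in the labels tells if the 4 arrays of a group stand for separate cultures, and p-values therefore cover the spread among arrays only, which may be technical. The small number of arrays limits the precision.

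Cells remove hydrogen peroxide through linked enzymes. Peroxiredoxins reduce peroxides, thioredoxin reduces the peroxiredoxins, and thioredoxin reductase restores thioredoxin with electrons from NADPH, which the pentose phosphate pathway supplies. NRF2 (gene Nfe2l2) is a transcription factor that raises many genes of this system when its inhibitor KEAP1 is modified by oxidants or electrophiles, while BACH1 represses some of the same genes, Hmox1 above all. Macrophages make superoxide and nitric oxide when activated by LPS, and they use these enzymes to limit the damage to themselves.

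Values are log2 intensities, so a difference of 1 is a doubling of the intensity. A value after ± is the SD of the 4 arrays of a group. Levels of different genes are not compared, because each probe set has its own response. The cells carried macrophage markers, with a median level of 11.63 over 10 genes (range 3.45 to 12.55). Cd68 averaged 12.55 in LPS+DHA5HT, 12.50 in LPS, 12.59 in DHA5HT and 12.57 in control arrays. The mannose receptor gene Mrc1 was an exception, at 3.13, 3.12, 4.13 and 3.40 in the same order of groups. Over 19 markers of lymphocytes, epithelial cells and fibroblasts, which the line should lack, the median level was 3.66 (range 2.77 to 5.35), which serves here as a background level. The mean of these markers per array lay between 3.85 and 4.02 in LPS+DHA5HT, 3.86 and 3.96 in LPS, 3.88 and 3.95 in DHA5HT, and 3.90 and 3.96 in control arrays. None of the 19 passed the test in LPS+DHA5HT against LPS or in DHA5HT against control arrays. In LPS against control arrays 3 passed (Dcn 0.52, Pax5 −0.41 and Cd4 −0.39 on the log2 scale), and in LPS+DHA5HT against DHA5HT arrays 2 (Dcn 0.30 and Cd3d 0.23); their part in the results was not tested. Among 10 macrophage markers, Mrc1 was higher and Fcgr1 lower in DHA5HT than in control arrays, and none passed in LPS+DHA5HT against LPS. In LPS against control arrays 4 of the 10 rose and 4 fell, where 28.4% of all genes passed. In LPS+DHA5HT against DHA5HT arrays 3 rose and 2 fell, where 28.1% of all genes passed. The title of LPS+DHA5HT array 1 names both agents and its treatment label DHA5HT alone. On the first principal component, which held 70.6% of the variance, it stood at 22.7. Arrays 2 to 4 of LPS+DHA5HT stood at 24.5 to 29.5, and the DHA5HT group at −33.6 to −31.0. LPS+DHA5HT array 4 stood apart on the second component (4.72% of the variance), at −22.4, with all other arrays between −9.36 and 10.0.

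The 250 bases before and 50 bases after the transcription start were searched for the antioxidant response element, the DNA motif bound by NRF2 with small MAF proteins. The search was made because several members moved together. Sequences came from RefSeq (build GRCm38.p6), in windows of 250 bases before to 50 after a start, which 9 of the 10 members had (12 windows). Hmox1 had none. On either strand, the core TGACNNNGC was found in 4 of the 12 windows, and in 12.4% of all 32851 windows. The 4 were those of Srxn1, Prdx1, Txnrd1 (1 of its 3 windows) and Pgd (1 of its 2 windows). A form shared with the MAF recognition element, TGANTCAGC, was added after the promoters had been read. It was found for Srxn1, Prdx1 and Osgin1, and in 1.19% of all windows (1.37% of genes with a window). Because of that order, its presence in members is no test. Nqo1, Taldo1, Tkt and Cat had no match to either form, and bases outside the windows were not searched. In Prdx1 both motifs match the same bases, which begin 133 bases before the start. The match lay 45 bases before the start in Srxn1, 99 in Osgin1 and 92 in Txnrd1. The Srxn1 match to TGACNNNGC began 29 bases and that of Pgd 4 bases after the start, outside the stretches shown. A match describes the letters only. The stretches that hold a match upstream of the start are given 5′ to 3′ on the gene's strand, with the matching bases in capitals.
Srxn1, chr2:152105274-152105523, plus strand: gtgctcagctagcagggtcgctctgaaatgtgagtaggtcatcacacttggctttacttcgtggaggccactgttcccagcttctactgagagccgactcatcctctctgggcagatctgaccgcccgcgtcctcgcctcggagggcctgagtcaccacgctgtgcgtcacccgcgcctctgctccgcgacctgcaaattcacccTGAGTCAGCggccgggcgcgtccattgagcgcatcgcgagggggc
Prdx1, chr4:116685349-116685598, plus strand: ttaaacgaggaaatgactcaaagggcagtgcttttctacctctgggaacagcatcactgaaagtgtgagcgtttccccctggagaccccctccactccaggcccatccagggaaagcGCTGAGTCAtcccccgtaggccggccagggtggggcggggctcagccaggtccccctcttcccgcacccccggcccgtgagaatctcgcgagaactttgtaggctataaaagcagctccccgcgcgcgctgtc
Osgin1, chr8:119436897-119437146, plus strand: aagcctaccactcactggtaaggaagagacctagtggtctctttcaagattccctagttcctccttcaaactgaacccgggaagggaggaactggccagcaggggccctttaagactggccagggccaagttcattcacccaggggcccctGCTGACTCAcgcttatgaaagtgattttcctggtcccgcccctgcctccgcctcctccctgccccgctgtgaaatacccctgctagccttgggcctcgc
Txnrd1, chr10:82858956-82859205, plus strand: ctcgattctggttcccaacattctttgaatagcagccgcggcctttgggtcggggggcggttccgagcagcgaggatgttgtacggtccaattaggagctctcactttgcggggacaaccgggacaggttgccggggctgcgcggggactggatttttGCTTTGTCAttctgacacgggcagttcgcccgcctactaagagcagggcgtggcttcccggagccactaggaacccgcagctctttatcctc

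The first comparison asks what DHA5HT does in cells activated by LPS. In LPS+DHA5HT against LPS arrays, 7 of the 10 genes rose and none fell: Txnrd1, Prdx1 and Srxn1 of the thioredoxin system, the catalase gene Cat, Nqo1, and Pgd and Taldo1 of the pentose phosphate pathway. The increases were moderate, from 1.20-fold for Txnrd1 to 1.59-fold for Srxn1. Hmox1, Tkt and Osgin1 did not pass, with differences above 0. Over all 18820 genes 1.79% passed, 0.818% higher and 0.972% lower (limma, Benjamini-Hochberg adjusted p under 0.05). With the array number as a block, which paired LPS+DHA5HT and LPS arrays, 3.44% of all genes passed and the same count of 7 members. The median log2 difference was 0.38 over the 10 members and 0.0020 over all genes. In 7 members all 4 LPS+DHA5HT arrays lay above all 4 LPS arrays, which was the case for 3.97% of all genes (3.91% lower, 7.89% in either direction). Readouts of the LPS response moved in the same arrays: 4 of 6 fell, Il12b by 1.80, Il23a by 1.18, Nos2 by 1.02 and Il6 by 0.66 on the log2 scale, and their part in the result was not tested.

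**Figure D1:**
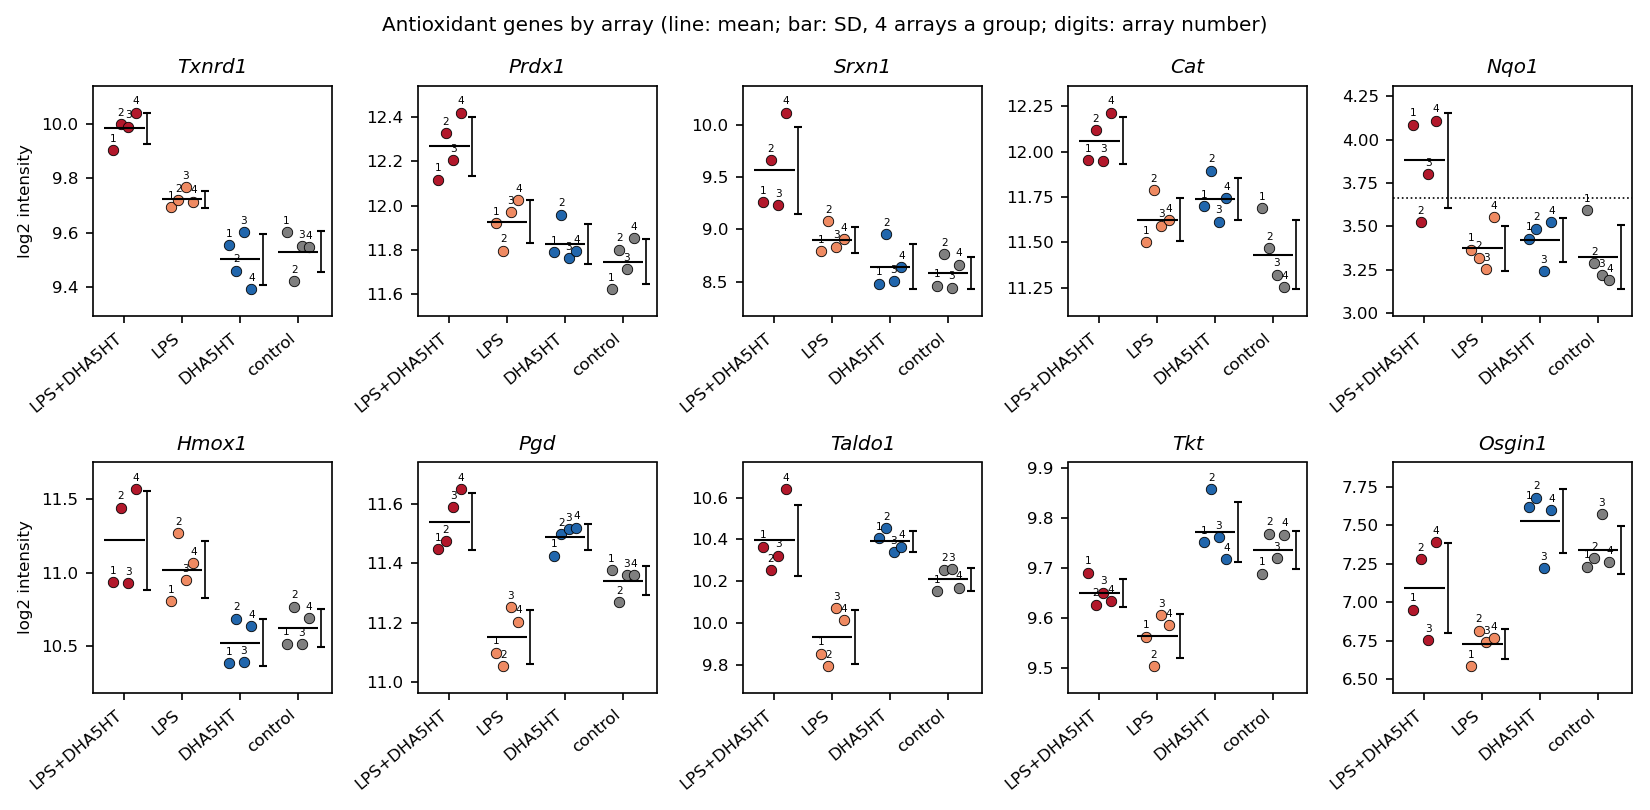
Log2 intensity of each gene on each of the 16 arrays, with groups along the x axis, a line at the group mean and a bar of 1 SD (n = 4); digits are array numbers, and the dotted line for Nqo1 is the background level of 3.66. The LPS+DHA5HT arrays lie above the LPS arrays without overlap for Txnrd1, Prdx1, Srxn1, Cat, Pgd, Taldo1 and Tkt.

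Txnrd1 encodes the cytosolic thioredoxin reductase, a selenoprotein that passes electrons from NADPH to thioredoxin. It stood at 9.90, 10.00, 9.99 and 10.04 in LPS+DHA5HT arrays 1 to 4, against 9.69, 9.72, 9.77 and 9.71 in LPS arrays. The groups did not overlap, and the spread within each was narrow. The difference was 0.26 (SE 0.06, 1.20-fold, limma adjusted p = 0.0355). In cells without LPS the DHA5HT arrays lay at 9.39 to 9.60 and the control arrays at 9.42 to 9.60, so these groups covered nearly the same range (−0.03, 95% interval −0.15 to 0.10, adjusted p = 0.926).

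Prdx1 encodes an abundant cytosolic peroxiredoxin. Its values were 12.12, 12.33, 12.21 and 12.42 in LPS+DHA5HT arrays, against 11.92, 11.80, 11.97 and 12.02 in LPS arrays. All LPS+DHA5HT arrays were higher than all LPS arrays, by 0.34 on average (SE 0.08, 1.27-fold, adjusted p = 0.0337). A second probe set of Prdx1, with 12.15 ± 0.09 in LPS+DHA5HT and 11.86 ± 0.03 in LPS arrays, gave a difference of means of 0.29. Without LPS, Prdx1 averaged 11.83 ± 0.09 in DHA5HT and 11.75 ± 0.10 in control arrays (0.08, 95% interval −0.08 to 0.24, adjusted p = 0.804). Whether probes of either set also detect processed copies of Prdx1 could not be seen from the files.

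Srxn1 encodes sulfiredoxin, which repairs peroxiredoxins that were overoxidized at their active cysteine. It had the largest difference of the 10 genes. Values were 9.26, 9.66, 9.23 and 10.12 in LPS+DHA5HT arrays, against 8.79, 9.08, 8.83 and 8.90 in LPS arrays. The groups did not overlap, but array 4 of LPS+DHA5HT lay well above its group, which had an SD of 0.42, against 0.13 in the LPS group. The difference was 0.67 (SE 0.16, 1.59-fold, adjusted p = 0.0412). Without LPS the mean was 8.64 ± 0.22 in DHA5HT and 8.58 ± 0.16 in control arrays (0.06, 95% interval −0.27 to 0.40, adjusted p = 0.947).

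Cat encodes catalase, the peroxisomal enzyme that splits hydrogen peroxide without NADPH as electron donor. It stood at 11.95, 12.12, 11.95 and 12.22 in LPS+DHA5HT arrays, against 11.50, 11.79, 11.59 and 11.62 in LPS arrays, again without overlap. The difference was 0.43 (SE 0.10, 1.35-fold, adjusted p = 0.0296). Among the 10 genes Cat also had the largest difference without LPS, with 11.70, 11.90, 11.61 and 11.74 in DHA5HT arrays and 11.69, 11.47, 11.32 and 11.25 in control arrays. Control array 1 lay within the DHA5HT range. That difference was 0.31 (95% interval 0.10 to 0.51) and did not pass (adjusted p = 0.249).

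Nqo1 encodes a quinone reductase widely used as a readout of NRF2. Its probe set was dim, at 4.09, 3.53, 3.80 and 4.11 in LPS+DHA5HT arrays, against 3.37, 3.32, 3.25 and 3.55 in LPS arrays. Array 2 of LPS+DHA5HT lay below LPS array 4, so the groups overlapped. All LPS arrays were below the background level of 3.66, and so was LPS+DHA5HT array 2. The difference of 0.51 (SE 0.12, 1.42-fold, adjusted p = 0.0412) is therefore between values at or near background. The DHA5HT and control groups, at 3.42 ± 0.13 and 3.32 ± 0.19, were also below that level. Hmox1 encodes haem oxygenase-1, which breaks down haem and is a target of both NRF2 and BACH1. It reached 10.94, 11.44, 10.93 and 11.57 in LPS+DHA5HT arrays, against 10.80, 11.27, 10.95 and 11.06 in LPS arrays. The groups overlapped, and the difference of 0.20 did not pass (95% interval −0.09 to 0.49, adjusted p = 0.584).

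Pgd and Taldo1 had the smallest p-values of the 10 genes. Pgd encodes 6-phosphogluconate dehydrogenase, an NADPH-producing step of the pentose phosphate pathway. It stood at 11.45, 11.47, 11.59 and 11.65 in LPS+DHA5HT arrays, against 11.10, 11.06, 11.25 and 11.20 in LPS arrays. Its groups were separate, and the difference was 0.39 (SE 0.06, 1.31-fold, adjusted p = 0.00347). Taldo1 encodes transaldolase, which acts in the branch that recycles pentose phosphates to glycolytic sugars. It had 10.37, 10.25, 10.32 and 10.64 in LPS+DHA5HT arrays, against 9.85, 9.79, 10.07 and 10.01 in LPS arrays. These groups did not overlap either, with a difference of 0.46 (SE 0.08, 1.38-fold, adjusted p = 0.00662). Tkt, transketolase of the same branch, averaged 9.65 ± 0.03 in LPS+DHA5HT and 9.56 ± 0.04 in LPS arrays. Its arrays did not overlap, yet the difference of 0.09 did not pass (95% interval −0.02 to 0.19, adjusted p = 0.496). Without LPS, all 4 DHA5HT arrays lay above all 4 control arrays for Pgd (11.49 ± 0.04 and 11.34 ± 0.05) and Taldo1 (10.39 ± 0.05 and 10.21 ± 0.06). Differences of 0.15 and 0.18 had adjusted p = 0.439 and 0.464, and 3.03% of all genes had non-overlapping groups in this direction (2.85% lower, 5.89% in either direction).

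Osgin1 encodes an oxidative stress-induced growth inhibitor that is a known NRF2 target. Its values were 6.95, 7.28, 6.75 and 7.39 in LPS+DHA5HT arrays, against 6.59, 6.82, 6.74 and 6.77 in LPS arrays. LPS+DHA5HT array 3 lay within the LPS range. The difference of 0.37 had a 95% interval of 0.10 to 0.64 and did not pass (adjusted p = 0.182).

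How far the calls rest on single arrays differed between genes. Pgd and Taldo1 kept theirs whichever of the 8 LPS+DHA5HT and LPS arrays was left out, with adjusted p of 0.00448 to 0.0179 and 0.00564 to 0.0291. The other calls were closer to the threshold. Txnrd1 was lost in 7 of 8 leave-outs (adjusted p 0.0557 to 0.0993) and kept without LPS+DHA5HT array 1. Its difference stayed between 0.24 and 0.29 in all 8. Nqo1 was lost in 6 (0.0562 to 0.132) and kept without LPS+DHA5HT array 2 or LPS array 4. Srxn1 was lost in 6 (0.069 to 0.102) and kept without LPS+DHA5HT array 1 or 3. Prdx1 was lost in 5 (0.0571 to 0.111) and kept without LPS+DHA5HT array 1 or 3 or LPS array 4. Cat was lost in 5 (0.0661 to 0.0918) and kept without LPS+DHA5HT array 1 or 3 or LPS array 2. Every difference stayed above 0. The count was 6 without LPS+DHA5HT array 1, the array with conflicting labels, where Nqo1 was lost (0.44, adjusted p = 0.115), 5 without array 3 and 3 without array 2 of that group, and 2 without its array 4. It was 2 without LPS array 1 or 3, 3 without LPS array 2 and 4 without LPS array 4. When the 8 arrays were fitted alone, without the DHA5HT and control arrays, 0 of the 10 genes passed in limma (adjusted p of the 7 between 0.0541 and 0.14). In that fit 0.457% of all genes passed. An unadjusted p under 0.05 was found for 8 of the 10 and for 12.5% of all genes.

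**Figure D2:**
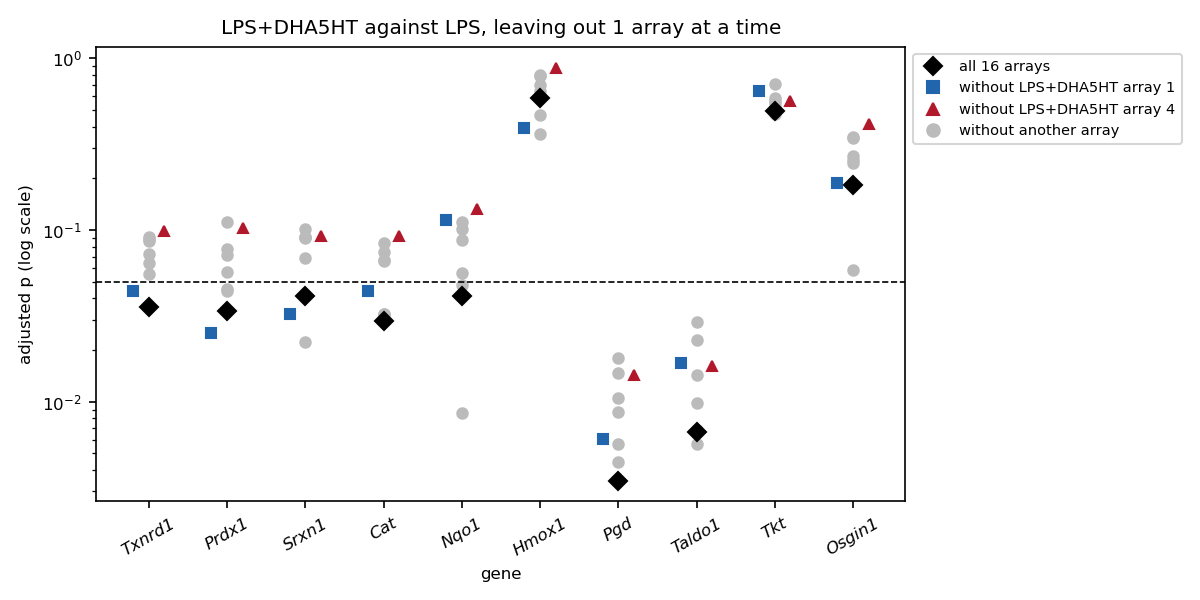
Adjusted p (log scale) of LPS+DHA5HT against LPS for each gene, with all 16 arrays (diamonds) and with 1 of the 8 compared arrays left out (squares, without LPS+DHA5HT array 1; triangles, without array 4; circles, without another array). Pgd and Taldo1 stay below the dashed line at 0.05, and Txnrd1, Prdx1, Srxn1, Cat and Nqo1 fall on either side of it.

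LPS+DHA5HT array 4, which stood apart on the second principal component, had the highest value of its group in 9 of the 10 genes, the exception being Tkt. The LPS+DHA5HT group had the largest SD of the 4 groups in 7 genes. Without array 4 the difference from LPS was 0.48 for Srxn1, 0.29 for Prdx1 and 0.24 for Txnrd1. Between same-numbered LPS+DHA5HT and LPS arrays, all 4 differences were above 0 in 9 of the 10 genes and in 12.1% of all genes. Between same-numbered DHA5HT and control arrays this held for 3 of the 10 (Pgd, Taldo1 and Cat) and 11.7% of all genes, and Hmox1 was below 0 in all 4 pairs. With LPS the differences ranged from 0.33 to 0.45 for Pgd, 0.21 to 0.33 for Txnrd1, 0.33 to 0.59 for Cat, and 0.40 to 1.22 for Srxn1, where the pair numbered 4 gave the highest. Hmox1 was the exception among LPS+DHA5HT and LPS pairs, with −0.02 for the pair numbered 3 and up to 0.50.

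DHA5HT without LPS asks what the compound does in resting cells. None of the 10 genes passed in DHA5HT against control arrays (limma), as against 0.6% of all genes (0.951% with the array number as a block, again with 0 members). An unadjusted p under 0.05 was found for 3 members (Pgd, Taldo1 and Cat) and for 9.85% of all genes. Differences lay between −0.10 for Hmox1 and 0.31 for Cat, with a median of 0.09 over the members and 0.0099 over all genes. The difference between the DHA5HT effects with and without LPS was tested as an interaction. It was above 0 in all 10 genes and passed in 0 of them in limma, where 0.329% of all genes passed. An unadjusted p under 0.05 was found for 6 members and for 7.65% of all genes. The estimates were 0.61 for Srxn1 (95% interval 0.13 to 1.08, adjusted p = 0.506), 0.41 for Nqo1 (0.05 to 0.77, adjusted p = 0.574), 0.29 for Txnrd1 (0.11 to 0.47, adjusted p = 0.267) and 0.13 for Cat (−0.16 to 0.41, adjusted p = 0.897). A larger effect of DHA5HT in LPS-treated than in resting cells was thus not shown for any of the 10 genes.

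**Figure D3:**
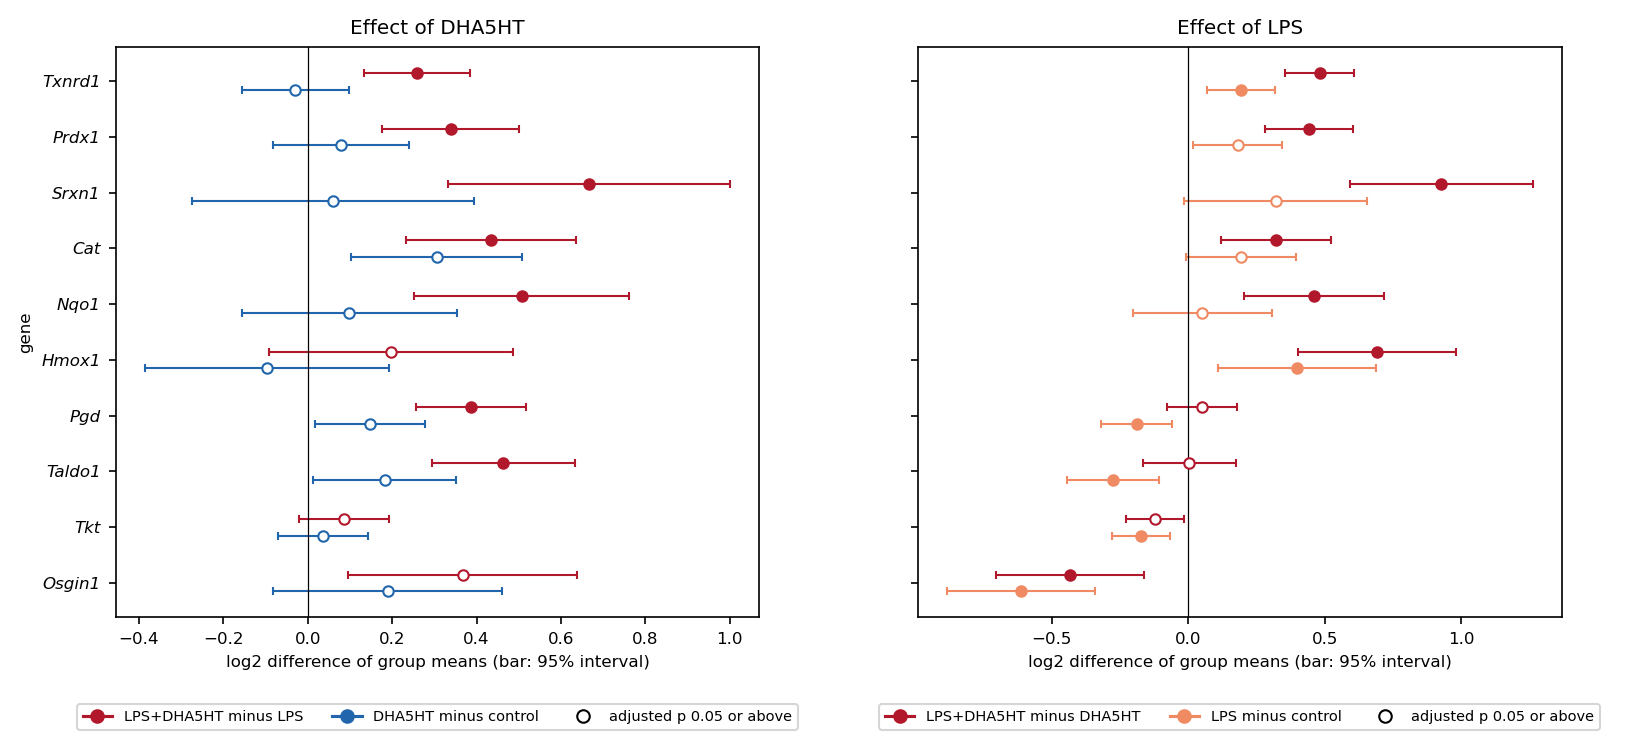
Log2 differences of group means with 95% intervals for each gene; the left panel has LPS+DHA5HT minus LPS (red) and DHA5HT minus control (blue), the right panel LPS+DHA5HT minus DHA5HT (red) and LPS minus control (orange), and filled points have an adjusted p under 0.05. All 10 red points of the left panel lie above 0, from 0.09 for Tkt to 0.67 for Srxn1, and all 10 blue points are open.

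LPS against control asks how the bacterial stimulus alone changed these genes, and they moved in both directions. The pentose phosphate genes Pgd, Taldo1 and Tkt and the growth inhibitor gene Osgin1 fell, while Txnrd1 and Hmox1 rose. With 6 of 10 genes past the threshold, the share is to be read against 28.4% of all genes (12.6% higher and 15.8% lower). The LPS and control arrays did not overlap in 3 members that were higher and 4 that were lower, where 29.8% of all genes did not (13.7% higher and 16.1% lower). Osgin1 changed most, with 6.59 to 6.82 in LPS arrays against 7.23 to 7.57 in control arrays. These ranges lay far apart, and the difference of −0.61 (SE 0.13, 1.53-fold lower, adjusted p = 0.00122) passed in every leave-out (adjusted p 0.00232 to 0.0061). Hmox1 stood at 10.80, 11.27, 10.95 and 11.06 in LPS arrays, against 10.52, 10.77, 10.51 and 10.69 in control arrays. It did not overlap and rose by 0.40 (SE 0.14, 1.32-fold, adjusted p = 0.0372). That call was kept only without LPS array 1 or control array 2 and lost in 6 of 8 leave-outs (differences of 0.32 to 0.42, adjusted p 0.0509 to 0.128).

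Txnrd1 rose by 0.19 after LPS (adjusted p = 0.0203), with the call lost without control array 2 (adjusted p = 0.0742) or LPS array 3 (0.0565). The decreases were small: −0.28 for Taldo1 (adjusted p = 0.0139), −0.19 for Pgd (adjusted p = 0.0276) and −0.17 for Tkt (adjusted p = 0.0151), each with no overlap between LPS and control arrays. Without LPS array 2, Taldo1 (adjusted p = 0.0553) and Tkt (adjusted p = 0.0531) lost their calls, and 2 of the 10 genes passed. Pgd lost its call in 5 of 8 leave-outs (−0.18 to −0.16, adjusted p 0.0614 to 0.0963), all but those of LPS array 3 or 4 or control array 2, and in the fit of the 8 compared arrays alone (adjusted p = 0.053). Prdx1 (0.18, adjusted p = 0.0946), Srxn1 (0.32, adjusted p = 0.16), Cat (0.19, adjusted p = 0.161) and Nqo1 (0.05, adjusted p = 0.818) did not pass. Cat passed without control array 1 (0.28, adjusted p = 0.0306), and Srxn1 passed in the fit of the compared arrays alone (adjusted p = 0.0219).

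The response to LPS in cells that also had DHA5HT gave another set of values. In LPS+DHA5HT against DHA5HT arrays, 6 of the 10 genes rose, Txnrd1, Prdx1, Srxn1, Cat, Nqo1 and Hmox1, and Osgin1 fell, where 28.1% of all genes passed (12.4% higher and 15.7% lower). Arrays did not overlap for 5 members that were higher and for Tkt, which was lower, and for 28.5% of all genes (12.8% higher and 15.6% lower). This comparison shares the LPS+DHA5HT arrays with the first and the DHA5HT arrays with the second, so it is no separate support for either. Srxn1 averaged 9.57 ± 0.42 in LPS+DHA5HT and 8.64 ± 0.22 in DHA5HT arrays (0.93, SE 0.16, 1.90-fold, adjusted p = 0.000192). Txnrd1 averaged 9.98 ± 0.06 and 9.50 ± 0.09 in the same groups (0.48, SE 0.06, 1.40-fold, adjusted p = 6.2e-06), and Hmox1 11.22 ± 0.33 and 10.53 ± 0.16 (0.69, SE 0.14, 1.61-fold, adjusted p = 0.000744). None of these groups overlapped.

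The pentose phosphate genes did not follow. Pgd averaged 11.54 ± 0.095 in LPS+DHA5HT and 11.49 ± 0.04 in DHA5HT arrays (0.05, 95% interval −0.08 to 0.18, adjusted p = 0.634), and Taldo1 10.40 ± 0.17 and 10.39 ± 0.05 (0.0045, 95% interval −0.16 to 0.17, adjusted p = 0.982). Both overlapped. Tkt changed by −0.12 without passing (adjusted p = 0.0867). Osgin1 averaged 7.09 ± 0.29 in LPS+DHA5HT and 7.53 ± 0.21 in DHA5HT arrays, a decrease (−0.43, SE 0.13, adjusted p = 0.016) that was lost without LPS+DHA5HT array 1 (adjusted p = 0.0511) or 3 (0.0636) or DHA5HT array 2 (0.0526). Cat rose by 0.32 (adjusted p = 0.0167), a call lost without LPS+DHA5HT array 4 (0.27, adjusted p = 0.0603) or DHA5HT array 3 (0.28, adjusted p = 0.0577). Prdx1 rose by 0.44 (adjusted p = 0.000226) and Nqo1, against a mean below background, by 0.46 (adjusted p = 0.00712).

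**Figure D4:**
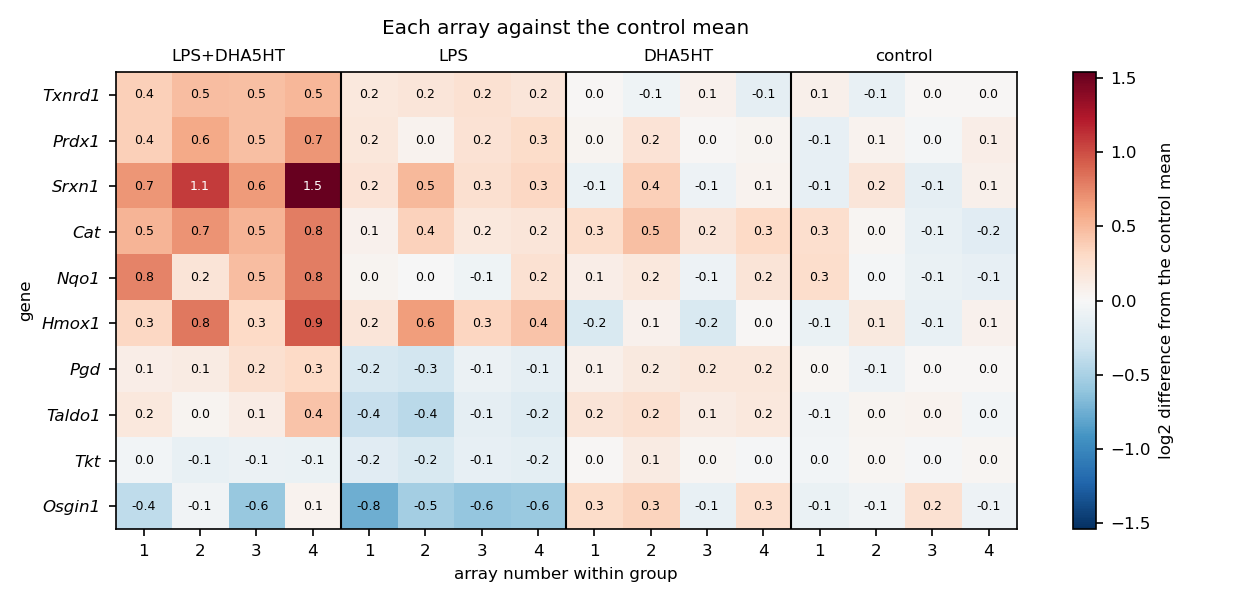
Log2 difference of each array from the control mean for each gene (rows) in the 16 arrays (columns, by group and array number), red above and blue below 0. The 4 LPS+DHA5HT arrays are above 0 in Txnrd1, Prdx1, Srxn1, Cat, Nqo1, Hmox1, Pgd and Taldo1, and the 4 LPS arrays are below 0 in Pgd, Taldo1, Tkt and Osgin1.

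Set against the control mean, the means of the 10 genes fell into several patterns, described here with no test. Txnrd1, Prdx1, Srxn1, Cat and Hmox1 were above control in LPS arrays and higher still with both agents: Srxn1 by 0.99 in LPS+DHA5HT, 0.32 in LPS and 0.06 in DHA5HT arrays, and Cat by 0.63, 0.19 and 0.31 in the same order. Pgd and Taldo1 were below control in LPS arrays and above it with both agents, Pgd by 0.20 in LPS+DHA5HT, −0.19 in LPS and 0.15 in DHA5HT arrays, and Taldo1 by 0.19, −0.28 and 0.18. Tkt (−0.09, −0.17 and 0.04) and Osgin1 (−0.24, −0.61 and 0.19) were below control in both groups that received LPS. Nqo1 differed from control mainly with both agents, by 0.56 in LPS+DHA5HT, 0.05 in LPS and 0.10 in DHA5HT arrays.

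Srxn1 and Hmox1 also varied together within groups. Over the 16 arrays, deviations from the group mean had a Pearson r of 0.92 for this pair, the highest of the 45 pairs of members, whose median was 0.14. Array 2 was the highest of its group for both genes in the LPS, DHA5HT and control groups, and array 4 in the LPS+DHA5HT group. Same-numbered arrays may share a culture day or another source that the labels do not give, so these points are not independent. Pgd and Taldo1 had an r of 0.63, and Srxn1 and Txnrd1 one of −0.04.

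Other genes of the pathway, from lists drawn up with earlier results of these data known, give the setting. Their counts in LPS+DHA5HT against LPS arrays are to be read against 1.79% of all genes called (0.818% higher) and 13.7% at an unadjusted p under 0.05. Here 0 of 21 further genes of the thioredoxin and peroxiredoxin system passed by limma (3 with unadjusted p under 0.05, median −0.0004). Of 18 further genes of NADPH supply and the pentose phosphate pathway 2 rose, with a median of 0.03. They were Nnt, a mitochondrial transhydrogenase (0.28, adjusted p = 0.0216), and Me1, the cytosolic NADP-dependent malic enzyme (0.38, adjusted p = 0.0412). None of the pentose phosphate genes of this list passed in limma. Of 22 genes of quinone, carbonyl and haem handling 3 rose, the aldo-keto reductase genes Akr1b8 (0.34, adjusted p = 0.0101) and Akr1b10 (0.33, adjusted p = 0.0493) and the iron exporter gene Slc40a1 (0.77, adjusted p = 0.0499), with a median of 0.13. None of 12 genes of superoxide and peroxide removal and none of 7 NADPH oxidase subunits passed in limma, with 1 gene of each list at an unadjusted p under 0.05 (medians −0.0099 and −0.04). Among 15 glutathione genes 6 rose, led by Gsta3 (1.03, adjusted p = 0.00232), with a median of 0.20.

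Of 14 genes of NRF2 and its regulators none passed in limma in LPS+DHA5HT against LPS arrays, and 2 had an unadjusted p under 0.05 (median −0.0024). The transcript of NRF2 itself, Nfe2l2, averaged 10.82 ± 0.02 in LPS+DHA5HT and 10.63 ± 0.04 in LPS arrays (0.18, adjusted p = 0.083). Its inhibitor gene Keap1 averaged 8.44 ± 0.11 and 8.45 ± 0.09 (−0.01, adjusted p = 0.956), and the repressor gene Bach1 7.48 ± 0.08 and 7.25 ± 0.07 (0.23, adjusted p = 0.132). DHA5HT without LPS gave no call by limma in any of these 7 lists, where 0.6% of all genes passed. An unadjusted p under 0.05 was found for 8 of 18 NADPH supply genes, 4 of 15 glutathione and 4 of 21 thioredoxin genes. Counts were 4 of 22 (quinone, carbonyl and haem), 3 of 14 (NRF2), 2 of 12 (superoxide and peroxide) and 0 of 7 (NADPH oxidase). Of all genes 9.85% had such a p, and whether a list differed from all genes was not tested. Transcript levels do not show the activity of NRF2, which is set largely by degradation of the protein.

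In LPS against control arrays 28.4% of all genes passed, 12.6% higher and 15.8% lower, and the counts of each list are to be read against these shares. Whether a list differed from all genes was not tested. The thioredoxin list had 5 genes higher and 4 lower, with Glrx, a glutaredoxin, at 0.88 (adjusted p = 1.28e-09), the methionine sulfoxide reductase gene Msra at −0.70, Sesn1 at −0.81 and Nxn at −0.58. The NADPH supply list had 3 higher and 7 lower, with Nadk2, the mitochondrial NAD kinase, at −0.65, Nnt at −0.57, Idh2 at −0.49 and Me2 at −0.39. The quinone, carbonyl and haem list had 6 higher and 7 lower, among them Blvrb, a biliverdin reductase, at 0.90, Cyb5r1 at 0.84, the efflux pump gene Abcc1 at 0.70 and Cbr2 at −0.87.

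Of 12 superoxide and peroxide genes, 2 rose and 1 fell in LPS against control arrays, again beside 28.4% of all genes (12.6% higher and 15.8% lower). Sod2, the mitochondrial superoxide dismutase, rose by 1.74 (3.33-fold, adjusted p = 1.29e-12), Selenow rose by 0.80 and Gpx1 fell by 0.35. Of 15 glutathione genes 6 rose and 2 fell, with the cystine transporter gene Slc7a11 at 3.44, Mgst3 at −1.09, Gclc at −0.48 and Gsr at 0.33. Among 7 NADPH oxidase subunits 4 rose, Rac2 (0.47), Ncf1 (0.44), Ncf4 (0.41) and Cybb (0.39), the last encoding the catalytic subunit, and 1 fell. Bach1 fell by 0.67 (adjusted p = 1.48e-06) and Nfe2l2 by 0.27 (adjusted p = 0.00042), Keap1 did not pass (−0.14, adjusted p = 0.145), and the small MAF gene Maff rose by 1.12. Over the 14 genes of that list 5 rose and 3 fell.

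The genes most like each member were found by Pearson correlation of log2 values over the 16 arrays, among 9118 genes brighter than the median gene, leaving out the members and unnamed or small RNA genes. The arrays fall into LPS and non-LPS groups, so these values describe the data and carry no test. Srxn1 was most like Dap (r = 0.96), Gclm (0.95), a subunit of the first enzyme of glutathione synthesis, and Akr1b8 (0.95), and Prdx1 was most like Akr1b8 (0.94). Txnrd1 was most like the glutathione reductase gene Gsr (0.96), Nqo1 like Slc25a12 (0.85), Fastkd3 (0.84) and Me1 (0.82), and Hmox1 like Dnajb9 (0.98), a chaperone of the endoplasmic reticulum, and Ampd3 (0.98). Taldo1 was most like Slc25a26 (0.90), Txn2 (0.89) and Fcrl1 (0.88), and Pgd like Relch (0.88). Cat was most like Tcp11l1 (0.96), Tkt like Scd4 (0.95) and Osgin1 like Crebrf (0.93).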

How the data were processed

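Total RNA of RAW264.7 cells was hybridised to Affymetrix whole-transcript arrays, per the labels' protocols. The deposited values are log2 intensities that the authors made with RMA (background correction, normalization between arrays and summary per probe set), per the submitters' processing notes; version, annotation and filters are not given in the sources used here. The table held 35556 probe sets on 16 arrays. The array's gene table named exactly 1 gene for 21218, several for 1881 and none for 12457. The probe set with the highest mean was kept for the 1386 genes with several, leaving 18820 genes. Symbols were updated through RefSeq gene identifiers (18790 found).

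Groups followed the sample titles. Tests used limma 3.58.1 in R 4.3.3 in a two-sided fit of 4 group means to the 16 arrays together, which left 12 residual degrees of freedom, with Benjamini-Hochberg adjustment over 18820 genes within each of 5 comparisons and a threshold of 0.05. Intervals are 95% from the moderated fit. All genes were fitted together, and the code was tested on simulated data. The members and gene lists were chosen with earlier results of these data known. All 10 members were named, and from each list up to 4 called genes with the smallest p, with Nfe2l2, Keap1 and Bach1 always. Same-numbered arrays deviated together from their group means in LPS+DHA5HT and LPS (correlations 0.116 to 0.205 over genes) and in DHA5HT and control (0.131 to 0.183), every pair above 0.1, so these comparisons were also fitted with the number as a block. In the other pairs of groups the lowest was 0.07 to 0.099. Alternatives were that block, an intensity trend, a filter on dim genes, renewed quantile normalization, centring, the mean of all probe sets, array weights, the compared arrays alone, a threshold of 0.01 and leaving out each array. Figures used matplotlib 3.10.9 in Python 3.11.15.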

Additional observations from a re-analysis of the deposited data

Results flagged for a closer look

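Within a group of 4, an array was noted when its gap to the nearest of the others exceeded 0.829 of the group's range (Dixon's 95% value). Of 40 sets of 4 values (10 genes in 4 groups), 3 did so, where chance gives about 1 in 20. Prdx1 stood at 11.96 in DHA5HT array 2, with the other DHA5HT arrays at 11.76 to 11.79. Pgd stood at 11.27 in control array 2, with the other control arrays at 11.36 to 11.38. Osgin1 stood at 7.57 in control array 3, with the other control arrays at 7.23 to 7.29. No interaction of DHA5HT and LPS was called for the 10 genes by limma, where 0.329% of all genes were called. The unadjusted p was under 0.05 for 6 of the 10 and for 7.65% of all genes.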

How the results depend on the processing

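Of 915 values of single members under alternatives, 827 kept their direction and side of the threshold, 71 lost a call, 8 gained one and 9 changed sign, none of these a called value. In LPS+DHA5HT against LPS, 7 members became 2 at a threshold of 0.01 and 0 in the fit of the compared arrays alone, and 2 to 6 when an array was left out. The 337 genes called there became 647 with the replicate block, 557 among genes above the median gene, 81 at 0.01, 86 in the compared arrays alone and 143 to 289 with an array left out. For LPS against control, 6 members became 1 at 0.01 and 2 to 5 with an array left out. Under the replicate block the genes called for DHA5HT without LPS went to 179, against 113, and for the interaction to 96, against 62 (28 at 0.01, 34 to 62 with an array left out). The block changed no member's call but that of Srxn1 in LPS against control (limma adjusted p = 0.0486). There the same-number correlations were 0.099 to 0.131, the lowest just under the pairing criterion of 0.1. Over all pairs of groups the best match was the own number in 20 of 24 cases. Array weights ended the Nqo1 call in LPS+DHA5HT against LPS (0.46, adjusted p = 0.0639), and quantile normalization that of Hmox1 in LPS against control (adjusted p = 0.0501). Prdx1 passed in LPS against control with an intensity trend (adjusted p = 0.0385), among genes above the median (0.0457) and with the mean of its probe sets (0.0256). Tkt passed in LPS+DHA5HT against DHA5HT with the trend (0.043) and among genes above the median (0.0264). Signs changed for uncalled values: in LPS+DHA5HT against DHA5HT, Pgd (−0.043) and Taldo1 (−0.031) after quantile normalization and Taldo1 with array weights (−0.023). With an array left out, Taldo1 there ranged from −0.078 to 0.052, Nqo1 in LPS against control from −0.0085 to 0.14, and in DHA5HT against control Txnrd1 from −0.065 to 0.0079 and Srxn1 from −0.042 to 0.12. The cause of these changes was not tested, beyond fewer arrays or genes in the fit. Nqo1 lies at background, which limits what its values show, and it is absent from the fit of genes above the median gene.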
